A study of Nannochloropsis oceanica strain IMET1 with 6 samples.

Results

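Of the 9552 genes listed for the microalga Nannochloropsis oceanica strain IMET1, 326 (3.41%) had almost no reads in either of the strains compared. They were chosen by their measured levels: a gene was called near-silent where its normalised read count was below 10 in all 6 libraries. A normalised read count is the number of reads of a gene divided by a factor that makes libraries comparable, and 1 read was worth between 0.939 and 1.09 of these units. The near-silent genes lay near chromosome ends and beside each other more often than the other 9226 genes, and 46.3% of them had no intron length, against 27.9% of the other genes. Their levels are what chose them and are given as a description, and all comparisons of structure and position below are counts and medians with no test.

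Nannochloropsis oceanica is a single-celled marine alga with a compact nuclear genome, studied for its storage lipids. Genes with few transcripts in a growing culture can be genes used only under other conditions, copies of other genes, or predicted genes that are not transcribed. In many eukaryotes the stretches next to chromosome ends carry repeated sequence and genes with low transcription. Intron content is read here from the gene table alone, as the genomic span of a gene minus its gene length.

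Libraries came from HLM23, an insertional knockout mutant of the gene NO06G03670 (3 libraries), and from the wild type (WT, 3 libraries). Both were grown in 25 ml of artificial sea water with nutrients, inoculated at a near-infrared optical density of 0.1, with a light intensity of 600 μmol per square metre per second for 16 h a day, a temperature of 25 °C and air with 0.2% CO2. Cells were harvested on day 3, 1 h before dark. HLM23 is 1 mutant strain, and the labels leave unsaid whether the libraries of a strain were grown as separate cultures. The spread behind each p-value is that between libraries and may be technical.

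The table held 15331673, 16346247 and 18711316 reads in HLM23 libraries 1 to 3 and 16406373, 16210183 and 16348009 in WT libraries 1 to 3. A detection floor of 3 reads was then worth between 2.82 and 3.26 units, so differences between single near-silent genes were mostly not detectable at this depth. The disrupted gene NO06G03670 had normalised read counts of 1073, 982 and 777 in HLM23 and 2164, 1664 and 1682 in WT. Every HLM23 library was below every WT library (944 ± 152 in HLM23 and 1837 ± 284 in WT, SD, n = 3 each), and the limma log2 fold change was -0.96 ± 0.18 (SE, adjusted p = 0.00255). The remaining reads do not show whether a working transcript was made.

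A near-silent gene had a median of 10 reads over the 6 libraries together (quartiles 5 and 18, highest 38). Only 50 of the 326 had a read in every library, and 38 had reads in a single library. Because the table lists no gene with fewer than 2 reads in all, genes with no read are not in the count of 326, and 34 of its members had just those 2 reads. The median of the mean normalised read count was 1.66 for near-silent genes (0.313 to 6.22) and 611 for other genes. Divided by gene length as FPKM (fragments scaled to gene length and library total), the highest level of a near-silent gene was 0.232 in the median and 2.18 at most, against a median of 24.7 for other genes. Together the 326 genes took 3941 reads, 0.00397% of all reads.

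The threshold of 10 cut through a continuous range, and 983 genes had a highest value from 10 to 100. Just inside it lay NO24G01800, with 1.09, 6.82 and 9.997 in HLM23 and 4.69, 0.958 and 9.08 in WT. NO21G02490 was just inside too, with 0, 3.90 and 9.997 in HLM23 and 2.82, 0 and 0 in WT. NO12G01300 lay just outside, with 9.77, 0 and 5.998 in HLM23 and 0.939, 4.79 and 10.08 in WT. NO01G00230 was just outside as well, with 4.34, 1.95 and 2.999 in HLM23 and 8.45, 9.58 and 10.08 in WT. In these genes 1 read more or less in 1 library decides membership.

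Near-silent genes were shorter than other genes under this rule. Their median gene length was 1202 bases (quartiles 576 and 2137), against 1932 bases (quartiles 1206 and 2985) for other genes. Genes under 500 bases made up 64 of the 326 (19.6%) and 492 of the other genes (5.33%). Among genes with a highest value of 10 to 100 this share was 14.6%. Genes over 3000 bases made up 43 of the near-silent genes (13.2%) and 2268 of the other genes (24.6%). The medians rose with level: 1563 bases for genes with a highest value of 10 to 100, 1812 bases from 100 to 1000 and 2180 bases above that. The genomic span, introns included, had a median of 1346 bases in near-silent genes and 2341 bases in other genes. The shortest near-silent genes were NO01G00080 with 201 bases and NO10G00390 with 213 bases.

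This length difference turned round with the measure that defines silence. A normalised read count is not divided by length, so at the same level per length a short gene has fewer reads and falls below 10 more easily. When the 326 genes with the lowest FPKM were taken instead, 231 of them were the same genes, but their median length was 2171 bases, against 1899.5 bases for the rest. By the rule on read counts, near-silent genes made up 11.5% of genes up to 500 bases and 1.86% of genes over 3000 bases. By FPKM these shares were 1.98% and 3.94%. The rule on FPKM leans the other way, because a few reads already give a short gene a high FPKM. Genes with fewer than 2 reads are not listed, so very short genes can hardly enter the lowest 326. The highest FPKM among these was 0.415, and the shortest of them had 303 bases. NO01G00080, with 201 bases and 8 reads over the 6 libraries, reached 0.921. Since each rule depends on length, the turn does not decide whether genes with low transcription are shorter or longer.

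**Figure D1:**
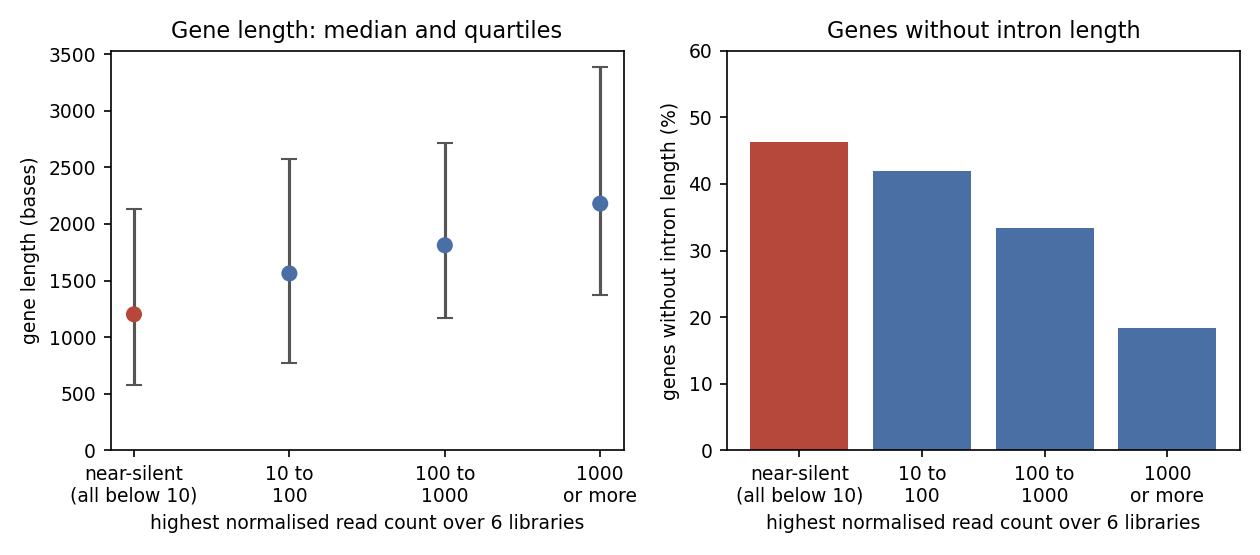
Gene length in bases (left, median with quartile bars) and the share of genes without intron length in percent (right), for near-silent genes and for 3 classes of other genes by their highest normalised read count. Near-silent genes had the lowest median length (1202 bases) and the highest share without intron length (46.3%), and both measures changed step by step with level.

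Introns were scarcer in near-silent genes, and unlike length this held under both rules. No intron length was found for 151 of the 326 (46.3%) and for 2576 of the other genes (27.9%). The share was 41.9% for genes with a highest value of 10 to 100, 33.3% from 100 to 1000 and 18.4% above that, so near-silent genes stood at the end of a gradient. Among the 326 genes with the lowest FPKM, 41.4% had no intron length, against 28.1% of the rest. The 175 near-silent genes with introns had a median of 249 bases of intron (quartiles 155.5 and 430), against 405 bases (211 and 820) in other genes with introns. As a share of the span these medians came to 17.0% in near-silent genes and 18.9% in other genes. More than 1000 bases of intron were found in 12 near-silent genes (3.68%) and in 1352 other genes (14.7%).

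Within classes of similar length the intron difference was present in short genes and was small or turned in long ones. No intron length was found for 59.4% of near-silent genes up to 500 bases, against 37.8% of other genes of that length. From 501 to 1000 bases the shares were 63.5% for near-silent and 35.4% for other genes, and from 1001 to 1500 bases they were 51.7% and 31.4%. From 1501 to 2000 bases they were 36.6% and 29.9%, and from 2001 to 3000 bases 30.4% and 27.1%. Above 3000 bases 16.3% of the 43 near-silent genes and 18.9% of other genes had none. A related property of the gene models was that the gene length was a multiple of 3 in 213 near-silent genes (65.3%) and 5231 other genes (56.7%), with 64.7% in the class from 10 to 100.

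**Figure D2:**
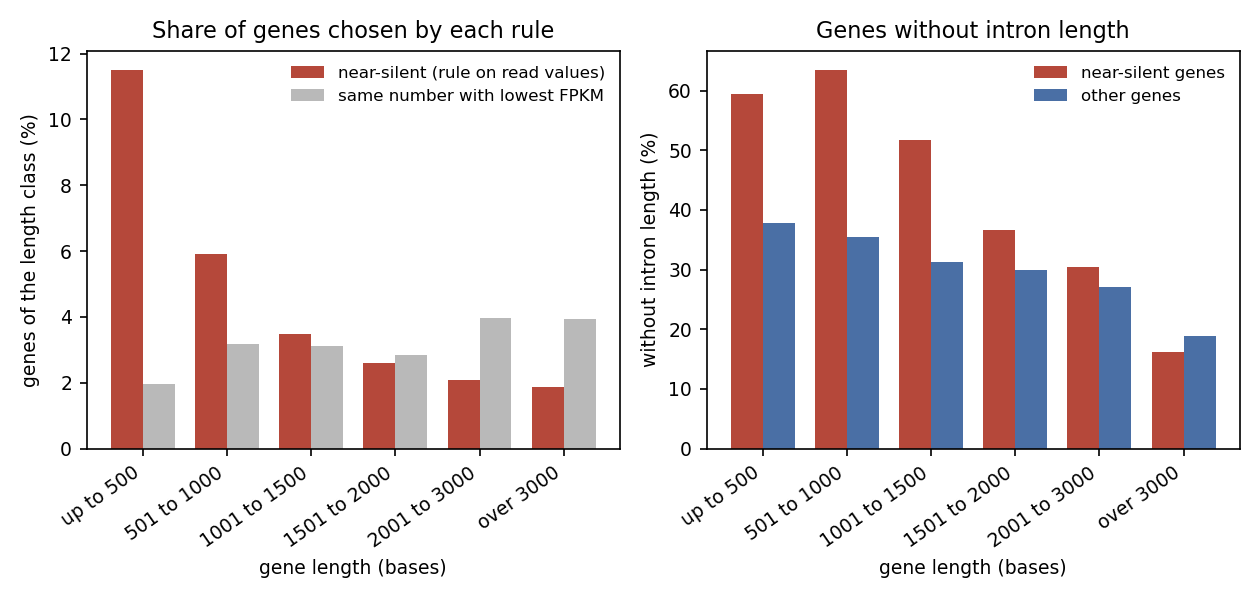
Both panels use classes of gene length in bases. Left, the percent of genes in each class that were near-silent by normalised read count (red) or among the same number of genes with the lowest FPKM (grey): the red share fell from 11.5% to 1.86% with length and the grey share did not. Right, the percent of near-silent (red) and other genes (blue) without intron length, which was higher in near-silent genes in every class except that above 3000 bases.

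The longest near-silent gene was NO18G00060, on the minus strand of chromosome 18 at 22260 to 41071, with 14349 bases of gene length and 4463 bases of intron, also the most intron of any member. Its normalised read counts were 5.43, 3.90 and 4.998 in HLM23 and 0, 0.958 and 0 in WT. NO18G00050 beside it had 7747 bases and values of 0, 0 and 0 in HLM23 and 1.88, 0.958 and 0 in WT. NO03G00740 (chromosome 3, 236031 to 243347, minus strand) had 6955 bases and values of 1.09, 0.975 and 0.9997 in HLM23 and 0, 0 and 1.01 in WT. After NO18G00060, the most intron was found in NO04G00180 (chromosome 4, 75940 to 80409, minus strand), with 1803 bases and values of 4.34, 1.95 and 6.998 in HLM23 and 1.88, 1.92 and 3.03 in WT. NO05G02850 (chromosome 5, 744819 to 749255, minus strand) had 1653 bases of intron, 65.8% of its span overlapped by other genes, and values of 1.09, 0.975 and 0 in HLM23 and 5.63, 0 and 0 in WT. In the last 3 of these genes the strains overlapped, and in NO18G00050 they met at 0. Long gene models with a handful of reads were thus part of the group beside the many short ones.

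Near-silent genes were found on all 30 chromosomes, and their share was uneven. It ran from 1.08% of genes on chromosome 12 (4 of 371) to 8.43% on chromosome 18 (21 of 249), with a median of 3.24% over chromosomes. Chromosomes 28, 30 and 10 followed with 6.43%, 6.31% and 6.02%. The high share of chromosome 18 came from a single stretch: outside the 3 longest runs of near-silent genes it was 3.21%. A run is unbroken in the order of listed genes. Chromosome 10 kept its 23 near-silent genes, since none lay in those runs.

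The outermost genes of the chromosomes were near-silent most often. Chromosome ends are taken here as the first and the last gene listed, since chromosome lengths were not used. Among the 10 genes nearest an end stood 72 of the 326 near-silent genes (22.1%), against 528 of the other genes (5.72%) and 9.56% of genes with a highest value of 10 to 100. The outermost gene itself was near-silent at 13 of 60 ends (21.7%) and the next one at 10 of 60 (16.7%). The share was 9.44% for places 3 to 5, 10.7% for places 6 to 10, 4.5% for places 11 to 20, 3.56% for places 21 to 50 and 2.49% further in. At 30 of the 60 ends there was no near-silent gene among the outermost 10. Without the 3 longest runs, which all reach an end, 45 of 296 near-silent genes (15.2%) stood among the outermost 10, against 5.996% of the remaining genes. These remaining genes include the 30 genes of the 3 runs.

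**Figure D3:**
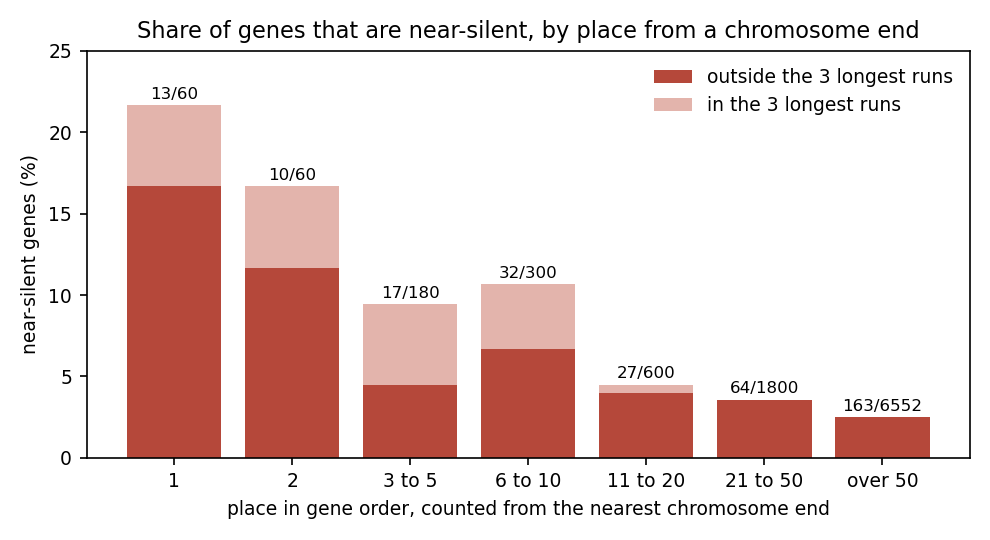
Percent of genes that were near-silent, by place in gene order from the nearest chromosome end, with the number of near-silent genes over all genes above each bar. The darker part of a bar counts genes outside the 3 longest runs. The share was highest for the outermost gene (13 of 60) and lowest beyond place 50 (163 of 6552).

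The 13 outermost near-silent genes together had 14, 11 and 46 reads in HLM23 libraries 1 to 3 and 17, 14 and 9 reads in WT libraries 1 to 3, and the strains overlapped. Of these genes 5 were at 0 in all WT libraries and 1 at 0 in all HLM23 libraries. NO07G00020, the first gene of chromosome 7 (6579 to 7987, plus strand), had 0, 0 and 9.997 in HLM23 and 0, 0 and 0 in WT, so all of its reads came from 1 library. NO13G03470, the last gene of chromosome 13 (1045108 to 1048842, minus strand), had 0, 2.92 and 0 in HLM23 and 2.82, 4.79 and 5.04 in WT. The first gene of chromosome 2, NO02G00010 (1610 to 3678, minus strand), and the last gene of chromosome 4, NO04G05300 (1501689 to 1503757, plus strand), had the same gene length of 1776 bases and the same 293 bases of intron. NO02G00010 had 0, 0 and 0 in HLM23 and 0, 0 and 2.02 in WT, and NO04G05300 had 1.09, 1.95 and 4.998 in HLM23 and 0, 0 and 0 in WT. Such models of equal shape may be copies that share reads, and their separate values are uncertain.

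Near-silent genes also stood next to each other in the order of listed genes. Of the 326, 115 (35.3%) had a near-silent gene as a direct neighbour, against 483 of the other genes (5.24%) and 11.8% of genes with a highest value of 10 to 100. The remaining 211 (64.7%) stood alone. There were 29 runs of 2 near-silent genes, 9 runs of 3, and single runs of 8, 9 and 13 genes. Without the 3 longest runs, 28.7% of near-silent genes had a near-silent neighbour, against 5.19% of the remaining genes, which include the genes of those runs. Neighbouring near-silent genes mostly pointed the same way: 50 of 74 such pairs (67.6%) were in tandem, as were 30 of 47 (63.8%) outside the 3 longest runs, against 38.5% of pairs with 1 near-silent gene and 38.8% of pairs with none.

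The space to the nearest listed genes was wider around near-silent genes. The median gap upstream of the gene was 601.5 bases for near-silent genes and 248 bases for other genes, and the median gap downstream was 371 and 217 bases. Genes with a highest value of 10 to 100 lay between, with medians of 376 bases upstream and 261 bases downstream. Between 2 neighbouring near-silent genes the median gap was 1042 bases (685 bases outside the 3 longest runs), against 232 bases between neighbours that were both not near-silent. Gaps of more than 2000 bases made up 32.4% of the pairs of near-silent genes and 2.66% of the pairs with none. In the table, gene numbers mostly step by 10 within a chromosome, and a number was skipped before or after 71 near-silent genes (21.8%) and 1151 other genes (12.5%). Gaps, neighbours and runs were taken between listed genes only, so a gene behind a skipped number can lie within a gap. In the runs of 13, 9 and 8 genes, 12 of 25, 14 of 23 and 7 of 15 gene numbers were not listed. The genes behind skipped numbers were not analysed here, and their part in the wider gaps was not tested.

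Those neighbours of near-silent genes that were not near-silent themselves were mostly well expressed. The 491 neighbour places not held by another near-silent gene had a median mean level of 376 normalised read counts (quartiles 64.6 and 992), and 70.3% were at 100 or more. For the neighbours of other genes, again without near-silent ones, the median was 616, and 86.5% were at 100 or more.

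Overlap with another gene was found in 36 near-silent genes (11.04%) and 1270 other genes (13.8%), and by FPKM the order turned round, with 14.1% of the 326 lowest genes against 13.7% of the rest. Complete overlap was more frequent in near-silent genes. At least 50% of the span was covered by other genes in 21 near-silent genes (6.44%) and 165 other genes (1.79%). In the class with a highest value of 10 to 100 the share was 3.87%. Genes lying wholly within others numbered 13 among near-silent genes (3.99%) and 33 among other genes (0.358%), with 1.12% in that class. In 12 of these 13 the covering gene was on the opposite strand, and the covering genes had a median mean level of 179 normalised read counts (1.01 to 2276). The handling of strand and of reads shared by overlapping genes is not stated in the labels, so the levels of these 13 genes are uncertain.

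The longest run held the first 13 genes listed on chromosome 18, from 546 to 87969, NO18G00010 to NO18G00250. It spanned 87.4 kb, with 11 genes on the minus and 2 on the plus strand, 5 of them without intron length. The run had 14, 44 and 33 reads in HLM23 libraries 1 to 3 and 2, 3 and 0 reads in WT libraries 1 to 3. Every HLM23 library was above every WT library, 10 of the 13 genes had no read in any WT library, and 1 (NO18G00050) had none in any HLM23 library. The genes next to the run were above the threshold but low in WT as well: NO18G00260 had 2.17, 8.77 and 44.98 in HLM23 and 0, 0 and 0 in WT, and NO18G00280 had 0, 5.85 and 16.0 in HLM23 and 0, 0 and 0 in WT. The next gene, NO18G00290, had 67.3, 74.1 and 59.98 in HLM23 and 10.3, 18.2 and 16.1 in WT. NO18G00300 after it had 530, 501 and 388 in HLM23 and 502, 521 and 530 in WT, where the strains overlapped.

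The second run held the last 9 genes listed on chromosome 9, from 1201127 to 1280381, NO09G04070 to NO09G04290. It spanned 79.3 kb, with 7 genes on the plus and 2 on the minus strand. The run had 6, 11 and 23 reads in HLM23 libraries 1 to 3 and no read in any WT library. No gene of it was read in all 3 HLM23 libraries, and 9 of the 11 reads in HLM23 library 2 fell on NO09G04130. The gene before the run, NO09G04050, had 13.0, 3.90 and 17.99 in HLM23 and 1.88, 0.958 and 5.04 in WT. NO09G04040 before that had 1032, 1217 and 1342 in HLM23 and 1506, 1362 and 1596 in WT.

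In both runs a gene at 0 in one strain must have reads in the other, since the table lists no gene with fewer than 2 reads. The genes at 0 in WT are thus listed only through their HLM23 reads, and the read counts of these runs are a description, not a test of the strains. Over the whole list, 53 near-silent genes were at 0 in all WT libraries and 23 at 0 in all HLM23 libraries. These counts do not remove that selection from the 2 runs. The 22 genes of the 2 longest runs held 19 of the 53 and 1 of the 23, and outside them the counts were 34 and 22. Together the 22 genes had 20, 55 and 56 reads in HLM23 libraries 1 to 3 and 2, 3 and 0 reads in WT libraries 1 to 3. As RPM (reads per 1000000 reads in the table) this was 1.30, 3.36 and 2.99 in HLM23 and 0.122, 0.185 and 0 in WT. Bulk RNA cannot tell whether a few cells carried many of these transcripts or all cells a few.

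**Figure D4:**
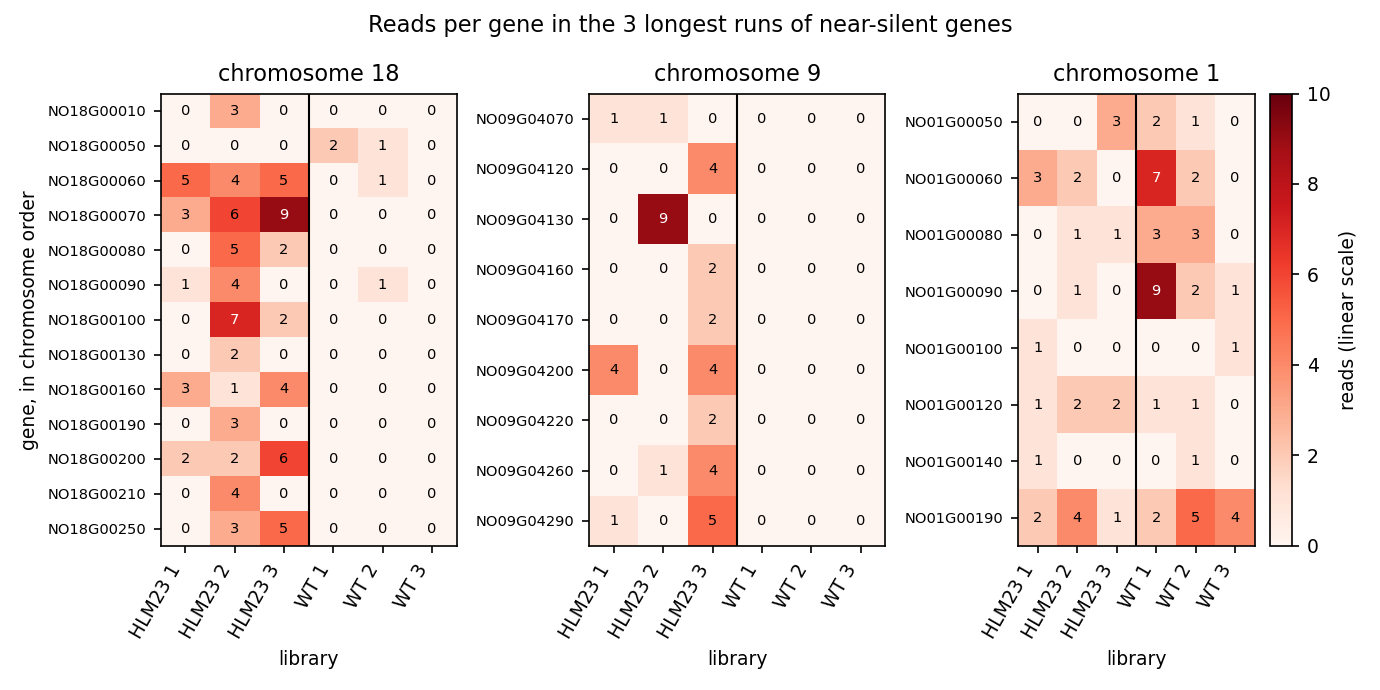
Reads per gene (colour and number) in the 3 longest runs of near-silent genes, with genes from top to bottom in chromosome order and the libraries of HLM23 left of the line and those of WT right of it. The runs on chromosomes 18 and 9 have reads in HLM23 and at most 3 reads per WT library, and the run on chromosome 1 has reads in both strains.

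The third run, 8 genes at the start of chromosome 1 from 6922 to 32705 (NO01G00050 to NO01G00190), did not share that pattern. It had 8, 10 and 7 reads in HLM23 libraries 1 to 3 and 24, 15 and 6 reads in WT libraries 1 to 3, and the strains overlapped. Of its 8 genes, 6 had no intron length. The gene models repeat themselves there: NO01G00050 and NO01G00190 both have 2175 bases, and the genes that follow them, NO01G00060 and NO01G00200, both have 3072 bases. NO01G00080 and NO01G00220 both have 201 bases, and NO01G00090 and NO01G00230 both have 390 bases, with the same order and strands. Of the models with 3072 bases, NO01G00200 had 20.6, 24.4 and 33.0 in HLM23 and 30.0, 22.0 and 23.2 in WT, and NO01G00060 had 3.26, 1.95 and 0 in HLM23 and 6.57, 1.92 and 0 in WT. No sequences were compared. If such models are near-identical copies, their reads may be shared, split or dropped in counting, so their separate values are uncertain.

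The densest stretch away from an end lay on chromosome 10, from 971044 to 1057806, at least 45 genes from the end. Of its 17 genes over 86.8 kb, 11 were near-silent and 10 of these had introns. The near-silent genes there had 22, 27 and 23 reads in HLM23 libraries 1 to 3 and 15, 20 and 20 in WT libraries 1 to 3. The other 6 genes reached 198 at most, in HLM23 library 3. Repeated models were found here as well: NO10G03430, NO10G03480 and NO10G03630 all have 843 bases of gene length and 957 bases of intron. NO10G03430 had 0, 1.95 and 0 in HLM23 and 2.82, 1.92 and 6.05 in WT, whereas NO10G03630, which is not near-silent, had 76.0, 29.2 and 9.997 in HLM23 and 4.69, 0.958 and 30.3 in WT. NO10G03470 and NO10G03620 share 3498 bases of gene length and 946 bases of intron. Over the whole table, a gene length and intron length equal to those of another gene with introns was found for 6 of 175 near-silent genes (3.43%) and 33 of 6650 other genes (0.496%).

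Summed over all 326 genes, HLM23 had more near-silent reads than WT. The sums were 650, 751 and 874 reads in HLM23 libraries 1 to 3 and 579, 585 and 502 reads in WT libraries 1 to 3. As RPM this was 42.4, 45.9 and 46.7 in HLM23 and 35.3, 36.1 and 30.7 in WT (45.02 ± 2.30 in HLM23 and 34.0 ± 2.90 in WT, SD, n = 3 each). The strains did not overlap, and without the 2 longest runs they did not either, with 41.1, 42.6 and 43.7 in HLM23 and 35.2, 35.9 and 30.7 in WT. Reads were found in 211, 202 and 216 of the genes in HLM23 and in 177, 202 and 171 in WT. HLM23 library 3 was also the deepest library, and the part of depth in the number of genes with a read was not tested. No p-value is given, because the members were chosen on these values.

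The strains did not overlap in genes inside the chromosomes either. The 251 near-silent genes further than 10 places from an end and outside the 2 longest runs had 35.9, 35.5 and 34.4 RPM in HLM23 and 29.1, 30.2 and 26.2 in WT. The 53 near-silent genes within 10 places of an end and outside the 2 longest runs had 5.15, 7.10 and 9.35 RPM in HLM23 and 6.03, 5.74 and 4.47 in WT, where the strains overlapped. The mean was higher in HLM23 in 213 of the 326 (65.3%), in 64.3% of genes with a highest value of 10 to 100 and in 50.0% of all other genes. With libraries scaled to equal totals, the median log2 fold change of all tested genes was -0.11, against -0.0022 under the authors' scaling, and these counts were 200 near-silent genes (61.3%) and 42.6% of other genes.

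**Figure D5:**
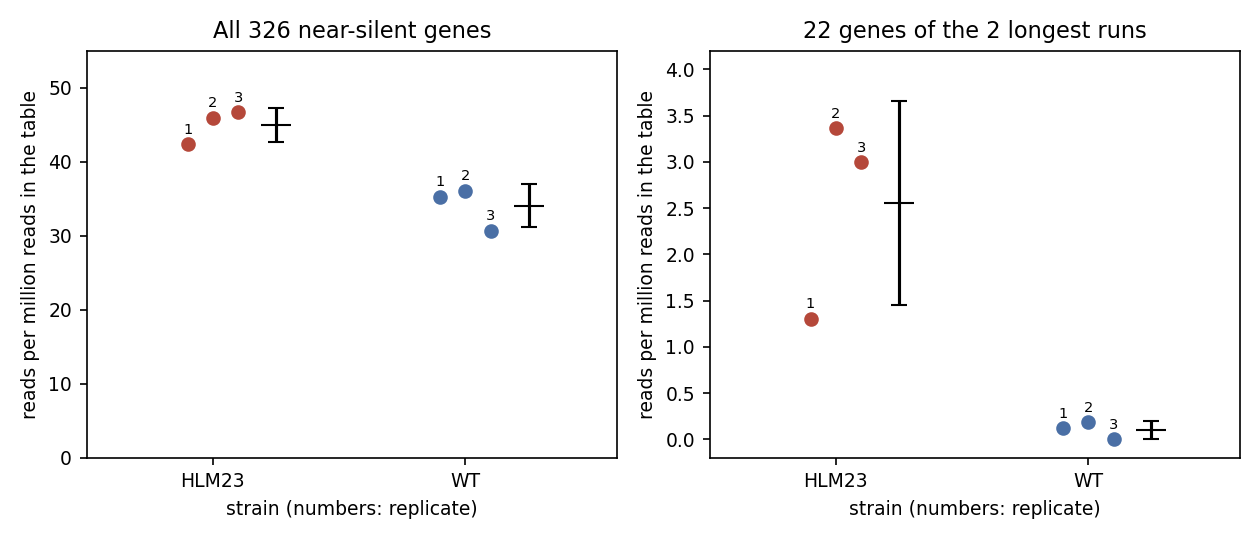
RPM (reads per 1000000 reads in the table) for all 326 near-silent genes (left) and for the 22 genes of the 2 longest runs (right), with a numbered point per library and bars for the mean ± SD of 3 libraries. HLM23 libraries lie between 42.4 and 46.7 and WT libraries between 30.7 and 36.1 on the left. On the right HLM23 lies between 1.30 and 3.36 and WT between 0 and 0.185. Of these 22 genes 19 are at 0 in WT and are listed only through their HLM23 reads.

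Gene by gene, few near-silent genes differed between the strains past the threshold. The limma fit covered 9452 genes with a mean of at least 1 and called 2730 of them (28.9%) at an adjusted p under 0.05, 1374 higher in HLM23 (14.5%) and 1356 lower (14.3%). Of the 326 near-silent genes 226 entered the fit, and 4 of these (1.77%) were called, all higher in HLM23 and none lower. At an unadjusted p under 0.05 there were 17. The authors' deposited table, with 31.7% of 9551 genes at an adjusted p under 0.05, called 1 of the 326, and 6 were under 0.05 unadjusted. The rule on low values used the same 6 libraries, so nothing is read from these counts.

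The called genes are given by their values only, with no p-value, because they were chosen on the same 6 libraries and passed the filter on the mean through their HLM23 values. NO18G00070, on the minus strand of chromosome 18 at 41551 to 42133, lies inside the longest run. Its normalised read counts were 3.26, 5.85 and 8.997 in HLM23 and 0, 0 and 0 in WT. NO28G00730 (chromosome 28, 247497 to 248990, plus strand) had 7.60, 3.90 and 5.998 in HLM23 and 0.939, 0 and 0 in WT. A gene on the minus strand of chromosome 23 at 633743 to 634813, given by position after its values were seen, had 4.34, 3.90 and 3.999 in HLM23 and 0, 0 and 0 in WT. The other called gene was NO18G00060, the longest near-silent gene, whose values are given above. In each of the 4 genes every HLM23 library was above every WT library, on 12 to 18 reads over all libraries. Leaving out HLM23 library 3, WT library 1 or WT library 3 ended all 4 calls, and leaving out HLM23 library 1 or WT library 2 left that of NO18G00070. Without HLM23 library 2 the calls of NO18G00070 and NO28G00730 remained, those of the other 2 genes were lost, and 2 further near-silent genes were called.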

How the data were processed

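RNA of 3 HLM23 and 3 WT libraries was sequenced by a company on a NovaSeq instrument, paired-end, after preparation of messenger RNA libraries, per the labels' protocols. Tools named in the submitters' processing notes are DESeq2, featureCounts, HISAT2 and fastp, and no source used here gives their versions, the genome build, the annotation or the strand handling. The authors deposited a table with the position, the gene length and the sample values of each gene. The sample values are a signal that the authors scaled between libraries: every value was within 0.001 of a read of a whole multiple of 1 step per library, the pattern left by division by a size factor. The authors also deposited FPKM, which divides by length, and for 6.44% of near-silent and 13.7% of other genes they used another length than the one listed. The authors' deposited log2 fold changes and p-values served only as an alternative. None of the 9552 IDs matched the 160 genes of the reference table, so no gene descriptions are given.

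Genes were ordered by start position. Strains were compared on log2(value + 1) for genes with a mean of at least 1, using limma 3.58.1 (R 4.3.3) with a trend of variance on level and p-values adjusted by the Benjamini-Hochberg method. These fold changes understate the change of low genes. A count model was not used, since an automatic test did not accept the values of 2 libraries, whose steps lie within 1% of 1, as whole reads. The fit was tested on simulated data first, with changes placed only in genes above near-silent levels, so that test does not cover near-silent genes. Members, lists and tests were chosen with earlier results of these data known. Genes were named by a rule: members of the longest runs, the longest genes and those with the most intron, genes beside the threshold, at most 2 called genes per direction, and NO06G03670; outermost genes, repeated models and the shortest genes were added after their values were seen. Intervals and floors cover counting error only.

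Alternatives were thresholds of 5 and 20, FPKM, other pseudocounts and filters, equal library totals, a replicate block, leaving out each library, and the authors' values; leaving out the 3 longest runs was chosen after seeing the data.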

Additional observations from a re-analysis of the deposited data

How the results depend on the processing

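A threshold of 5 gave 187 genes and one of 20 gave 533. The near-silent neighbour share was 28.3% at 5, against 3.14% of the rest, and 26.7% by FPKM, against 5.57%. Without the 3 longest runs (chosen after seeing the data) it was 28.7%, against 5.19%. The share among the outermost 10 genes was 17.6% at 20, against 5.61% of the rest, and 15.2% without those runs, against 5.996%. It was 12.3% for the outermost 5 genes and 30.4% for the outermost 20, against 2.82% and 11.9% of the other genes. By FPKM the median length was 2171 bases and the median span 2372 bases, against 1899.5 and 2295 bases for the rest. The length difference thus turned round, but both rules depend on length and the turn does not decide the question. Overlap with another gene was 14.1% by FPKM, against 13.7% of the rest, and an overlap of at least 50% of the span gave 6.44%. The share without intron length was 41.4% to 48.1% under the thresholds, FPKM, each library left out and the runs left out. No gene had every value at 0.

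The calls over all genes numbered 1303 at an adjusted p under 0.01 and 1530 to 2704 with a library left out. With equal library totals 1026 were higher and 1603 lower in HLM23. Near-silent calls numbered 0 at an adjusted p under 0.01, 0 with a pseudocount of 10, 7 without the filter, 1 in the authors' deposited table, 2 without the 3 longest runs and 0 to 4 with a library left out, not always of the same genes, all higher in HLM23. The cause was not tested. With the replicate number as a block 1 near-silent gene was called. The deviations of same-numbered libraries from their strain means had correlations of -0.07, -0.11 and 0.15. Low correlations cannot show whether these libraries were grown or prepared together, and the labels leave this unsaid. A mean filter of 10 leaves no near-silent gene. Depth limits single genes: 3 reads are worth up to 3.26 units.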
